A study of Mus musculus with 4 samples.

Results

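Genes of the mitochondrial respiratory chain were followed in liver RNA of Fto knockout and wild-type mice, using miCLIP, which crosslinks an antibody that binds methylated adenosines to RNA, and the input RNA taken before that step. The mitochondrial members were all features whose name in the deposited tables starts with mt-. The nuclear members were protein-coding genes with names starting with Nduf, Uqcr, Atp5, Cox4, Cox5, Cox6, Cox7 or Cox8, together with Sdha, Sdhb, Sdhc and Sdhd. These rules gave 91 of the 13887 gene names in the tables, 10 of them mt- and 81 nuclear. The immunoprecipitate table lists transcripts, and 75 of its 7569 transcript features were members, 13 mt- and 62 nuclear. The nuclear features belonged to 42 genes. The input table lists genes, and 87 of its 12883 genes were members, 8 mt- and 79 nuclear. Of those 79, 72 were taken as subunits of the chain. The name rule also takes in assembly factors and other genes, such as Cox4nb, now named Emc8, and Atp5sl, now named Dmac2.

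The 4 groups were Fto knockout immunoprecipitate, wild-type immunoprecipitate, Fto knockout input and wild-type input, all from liver biopsies of mice on a C57/Bl6 background. Each label states 3 replicates. The sources used here give neither age, nor sex, nor how the Fto allele was made. What could be used were comparison tables, with 1 line per feature: the authors' mean normalized count over the libraries (called the mean below), their log2 fold change with its standard error (SE), and their p. Values of single libraries and totals per library were not analysed here, so no level can be given for knockout and wild-type liver apart, and depth is unknown. Fold changes are given as knockout over wild type. The tables do not state this direction. For the input it was read from Fto itself, whose log2 value in the authors' deposited table was −1.49 (SE 0.27) at an adjusted p of 3.52e-04, and the immunoprecipitate was read the same way. If that table runs the other way, each of its signs turns. These are bulk liver samples, in which fewer cells of a type and less RNA per cell cannot be told apart.

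The respiratory chain passes electrons from NADH and succinate to oxygen through complexes I to IV and uses the proton gradient this builds to make ATP in complex V. Mitochondrial DNA encodes a small set of core subunits, copied as long transcripts that are cut into single RNAs and never receive the m7G cap of nuclear messengers. The nuclear genome encodes the other subunits, whose messengers are capped in the nucleus and translated in the cytosol. N6,2'-O-dimethyladenosine (m6Am), a substrate of the demethylase FTO, lies next to that cap, whereas N6-methyladenosine (m6A) lies inside transcripts, and the antibody binds both. Liver is rich in mitochondria, and its hepatocytes use the chain for fatty acid oxidation, glucose production and urea synthesis.

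In the immunoprecipitate, messengers of the mitochondrial genome were abundant, and none passed the authors' test. The 13 mt- features made up 4.63% of the summed means of the table and the 62 nuclear features 0.204%. Means of the mt- features ran from 166 to 6983, and those of the nuclear features from 0.724 to 163, in the authors' deposited table. All 13 mt- fold changes lay between −0.77 and 0.14, each within 1 SE of 0, where 43.4% of all features lay. Of the 139 other features within the range of mt- means, mitochondrial rRNAs and tRNAs included, 36.0% lay within 1 SE. No mt- feature reached an unadjusted p under 0.05 in the authors' DESeq2 table, and 0 of 13 passed the adjusted p of 0.05 used as the threshold throughout. Of all features with an adjusted p, 4.69% passed it, 0.895% as higher and 3.79% as lower. For the immunoprecipitate, higher and lower here and below follow the sign of the printed fold change. The authors' p in that table is not the p of this fold over its SE and may test another term.

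The mitochondrial subunits of complex I, which takes electrons from NADH, held the highest mt- means. The feature of mt-Nd3 had a mean of 6983 and a log2 fold change of −0.38 (SE 0.58, 95% interval −1.53 to 0.76) in the authors' deposited table. That of mt-Nd2 had a mean of 2690 and a fold change of −0.37 (SE 0.58), and that of mt-Nd1 a mean of 1328 and a fold change of −0.62 (SE 0.65, adjusted p = 0.532), by the authors' deposited table. Each interval spans 0, so changes in either direction remain possible within it. Names in this table are not unique: mt-Nd4, mt-Nd6 and mt-Co3 each stand on 2 transcript identifiers, which no table used here resolves. The features named mt-Nd6 had means of 3497 and 2008 with fold changes of −0.58 (SE 0.66) and −0.32 (SE 0.47), and those named mt-Nd4 had means of 1684 and 175 with fold changes of −0.28 (SE 0.51) and 0.14 (SE 1.46), in the authors' deposited table.

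Complex IV reduces oxygen, and its catalytic core is mitochondrial. In the authors' deposited table mt-Co1 had a mean of 637 and a log2 fold change of −0.77 (SE 0.96), the lowest of the mt- values. The fold change of mt-Co2 was −0.61 (SE 0.74) at a mean of 1391 in the authors' deposited table. Features named mt-Co3 stood at −0.60 (SE 0.63, adjusted p = 0.515) and −0.29 (SE 1.28), at means of 1326 and 677, in the authors' deposited table. That name is not unique, so it is not settled that both features belong to complex IV. Cytochrome b of complex III, mt-Cytb, was at 0.04 (SE 0.78, mean 166), and mt-Atp6, the proton channel subunit of complex V, at −0.41 (SE 0.81, mean 329), in the authors' deposited table. The sign of these values depends on scaling: the median of the 13 mt- features was −0.38 as deposited and 1.21 after the median of all features (−1.59) was taken off. The 122 other features within the range of mt- means, mitochondrial rRNAs and tRNAs left out, had a median of −0.20 with quartiles at −0.94 and 2.27. Of those 122, 9 passed the threshold.

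**Figure D1:**
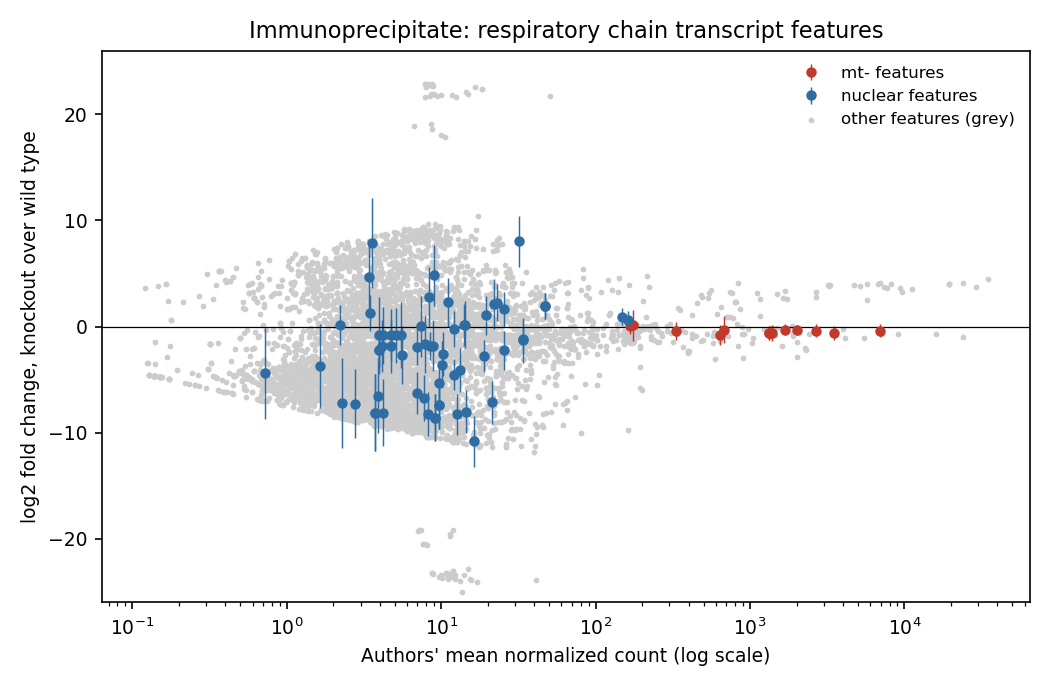
Log2 fold change (knockout over wild type) in the immunoprecipitate against the authors' mean normalized count on a log axis, for 13 mt- features, 62 nuclear features and the other features of the table. Bars are the authors' SE. The mt- features lie at means from 166 upward within 0.77 of 0, while most nuclear features lie at means under 50 and spread from −10.82 to 8.05.

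Nuclear respiratory chain transcripts were thinly covered in the immunoprecipitate, and 1 feature passed the threshold in the authors' table, a call that was lost when their p was adjusted over all features of the table (adjusted p = 0.122). It was a transcript of Atp5c1, the gamma subunit that forms the rotating stalk of ATP synthase, which the authors' deposited table lists at a mean of 12.7 and −8.25 on the log2 scale, with SE 1.93 and adjusted p = 0.0465. A second Atp5c1 transcript had the same fold change of −8.25 (SE 2.05) at a mean of 8.19 and did not pass (adjusted p = 0.0954). With so few reads behind both lines, the size of this fold is poorly determined. The called feature was 1 of 36 nuclear features with an adjusted p, or 2.78%, against 4.69% of all features and 3.79% for falls alone. Calling by fold over SE in place of the authors' p gave 13 of 62 nuclear features, or 21.0%, against 10.8% of all features. At a mean of at least 10 that rule gave 6 of 25 nuclear features, or 24.0%, against 434 of 1682 of all features. The order of the shares thus depended on the calling rule and on the mean.

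Precision followed the mean. The median SE of nuclear features was 3.18 for the 19 with a mean under 5, 2.21 for the 18 with a mean of 5 to under 10, 2.01 for the 23 with a mean of 10 to under 50 and 0.84 for the 2 above that. For the 13 mt- features it was 0.66. Nuclear fold changes ran from −10.82 to 8.05, with 21 features below −4 and 4 above 4. Of the 62, 25 lay within 1 SE of 0, or 40.3%, against 43.4% of all features. Their median was −1.82, and that of all features −1.59. The difference between the medians, mt- minus nuclear, was 1.44, and at a mean of at least 10 it turned to −0.16, since the nuclear median there was −0.22 over 25 features. No separate change of mt- and nuclear transcripts can be read from these medians.

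An unadjusted p under 0.05 was reached by 12 nuclear features of 8 genes, 20% of those with a p, against 10.4% of all features. At a mean of at least 10 the order turned, with 4 of 23 nuclear features, or 17.4%, against 23.0% of all features. In direction, 11 were lower and 1 was higher, while over all features 583 of 712 were lower. At a mean of at least 10, 3 were lower and 1 was higher, while over all features 267 of 361 were lower. Of the 12, 10 differed in mean and fold, since transcripts of a gene share reads. Complex V held 5, from Atp5c1, Atp5g3 and Atp5d. Both transcripts of Atp5g3, a gene for the c subunit of the proton-carrying ring, were at −7.43 (SE 2.19, adjusted p = 0.0938) with the same mean of 9.73 in the authors' deposited table. Atp5g1, Atp5g2 and Atp5g3 encode the same mature protein, and reads of such paralogs could be split by the authors' counting, so their single values are uncertain. Atp5d, the delta subunit of the stalk, had transcripts at −4.54 (SE 1.48), −2.75 (SE 1.53) and 1.28 (SE 1.71), at means of 12.2, 19.0 and 3.46, in the authors' deposited table.

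Complex III passes electrons from ubiquinol to cytochrome c. Its subunit gene Uqcrq had 3 features, of which 2 shared a mean of 9.16 and a fold change of −8.60 (SE 2.21, adjusted p = 0.0757), while the third stood at 8.05 (SE 2.41, adjusted p = 0.156) with a mean of 32.1, in the authors' deposited table. Transcripts of this 1 gene thus lay on opposite sides of 0, and none passed the threshold. Uqcr, listed in RefSeq as Uqcr11, had the lowest nuclear value, −10.82 (SE 2.37, mean 16.3), with no p in the authors' deposited table. Uqcrh, the hinge protein of the complex, stood at −1.28 (SE 2.12, mean 33.9) in the authors' deposited table.

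Nuclear subunits of complex I had 27 features from 22 genes, with 12 above 0. Of the 15 with an adjusted p, 0 were called, against 4.69% of all features with one. Ndufa3 had transcripts at −7.15 (SE 2.06, mean 21.2) and −1.82 (SE 2.54, mean 4.74), and Ndufs5 at −6.72 (SE 2.16, mean 7.72) and −0.22 (SE 1.73, mean 12.1), in the authors' deposited table. Both are accessory subunits. None of these 4 values passed, and the Ndufa3 transcript at −1.82 had no adjusted p. Ndufb9, another accessory subunit, stood at −5.34 (SE 2.14, mean 9.69, adjusted p = 0.162) by the authors' deposited table. Ndufb5 had 1 transcript at −8.01 with no p and another at 0.14 (SE 2.01), at means of 14.4 and 14.0, in the authors' deposited table. The 0.14 is shared to 4 decimals by 240 features, so it cannot be taken as a measurement of this gene. The assembly factor Ndufaf1, whose product helps build complex I, had 3 transcripts at −8.10 with means of at most 4.20 and no adjusted p in the authors' deposited table.

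Complex II, succinate dehydrogenase, is encoded by nuclear genes alone. Its membrane anchor gene Sdhc was the most abundant nuclear member in the immunoprecipitate, and the nuclear one measured best. Its transcripts had means of 163 and 149 with fold changes of 0.62 (SE 0.84, adjusted p = 0.988) and 0.95 (SE 0.84, adjusted p = 0.905) by the authors' deposited table. Sdha, the flavoprotein, had a mean of 4.22 and a fold change of −0.82, a value that 786 features of the table share to 4 decimals. The same shared value stood at 4 members in all, the others being Cox6b1, Ndufb10 and 1 transcript of Atp5g1, so it cannot be taken as a measurement of these genes. No feature of Sdhb or Sdhd was analysed here in the immunoprecipitate.

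Complex IV had 4 nuclear features, of which 2 had an adjusted p, and none passed. Cox6a1, a small subunit that regulates the enzyme, was at −6.25 (SE 1.99, mean 6.94) with an unadjusted p of 0.0252 and no adjusted p in the authors' deposited table. Cox8b, known as a heart and muscle isoform, was at −3.60 (SE 2.21, mean 10.1, adjusted p = 0.571) by the authors' deposited table and was among the 2 nuclear members found in the immunoprecipitate table only. Of 5 muscle markers, Acta1 alone was in the input table, at a mean of 10.8 and −0.64 (SE 0.30), with an unadjusted p of 0.0320, in the authors' deposited table. The part of muscle RNA in the Cox8b value was not tested.

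Among the 14 nuclear genes with more than 1 immunoprecipitate feature, 6 had features on both sides of 0 and 5 had fold changes more than 4 apart on the log2 scale. Of those 6, Atp5g1 and Ndufb5 lay on both sides only through a value shared by many features, −0.82 and 0.14. Such a value cannot be taken as a measurement of the gene. Ndufb5 was counted among the 5 through the same shared value. Atp5h, a stalk subunit, had 3 transcripts between −2.17 and −1.13, and Ndufs7, a core subunit of complex I, had 2 at −1.88 and 0.16, in the authors' deposited table. Atp5j, a coupling factor gene, ranged from −1.82 to 1.61, and Atp5g1 stood at 1.06, at 2.23 and at the shared −0.82, in the authors' deposited table. Features of a gene overlap in sequence and are no replicates of it. The spread within a gene reached the size of the spread between genes, with 16.65 for Uqcrq.

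**Figure D2:**
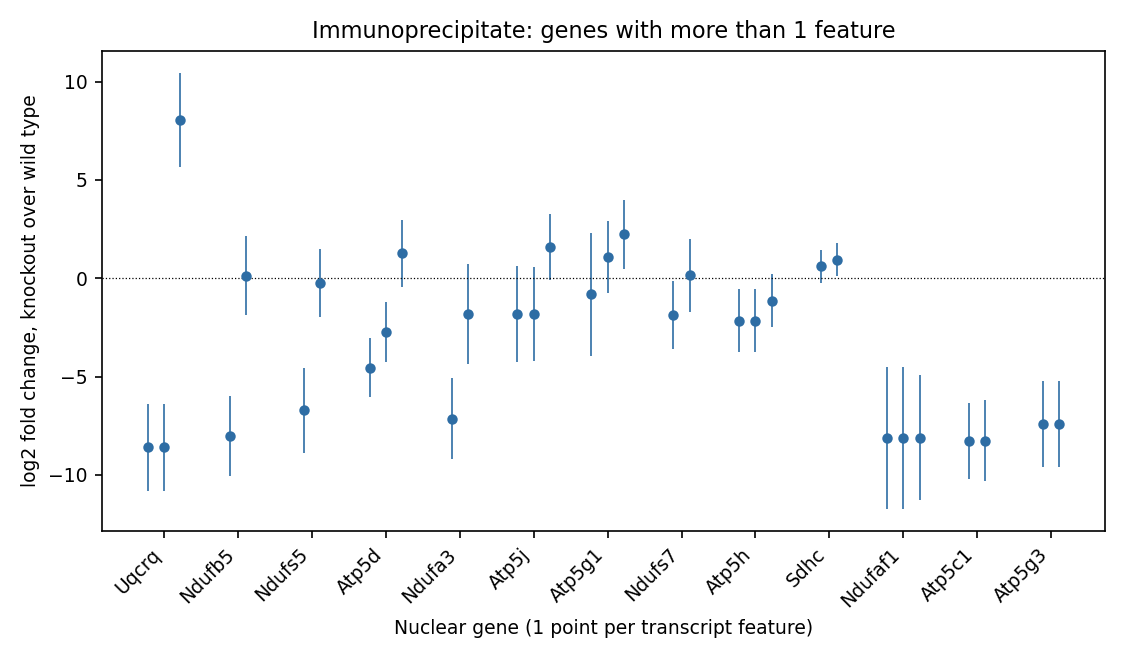
Log2 fold change (knockout over wild type) in the immunoprecipitate for each transcript feature of 13 of the 14 nuclear genes with more than 1 feature, ordered by the range within the gene. Bars are the authors' SE. Uqcrq has features at −8.60 and 8.05, whereas the Sdhc features stand at 0.62 and 0.95.

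Promoters were examined because, among messengers, cap-adjacent m6Am needs a start with adenosine, and because nuclear respiratory genes are known for shared promoter motifs. RefSeq windows (build GRCm38.p6) from 250 bases before to 50 bases after the annotated start were matched for 68 of the 81 nuclear genes, which gave 74 windows. The annotated start base was A in 17 of these windows (23.0%), against 34.4% of all 32851 windows and 37.4% of the windows of protein-coding genes. The core of the ETS factor motif, CCGGAAG, was found on either strand in 17 windows (23.0%), against 8.86% of all windows and 11.6% for protein-coding genes. The core of the motif of the factor NRF1, the letters GCGCA followed by TGCGC, was in 5 windows (6.76%), against 0.971% and 1.33%. A core of the YY1 motif, AAGATGG, was in 13 windows (17.6%), against 6.34% and 6.24%, and it can overlap the ETS core by the letters AAG. Annotated starts were not measured in these livers, and a match is a description of the letters.

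Windows are shown for 3 genes described above, the called Atp5c1, the lowest value (Uqcr) and Cox6a1, whose window holds both an ETS and an NRF1 core. Capitals mark matches to those cores on either strand, and the annotated start is the base after the first 250. The windows lie at chr2:10080461-10080760 (minus strand), chr10:80406772-80407071 (minus strand) and chr5:115348909-115349208 (minus strand), each written 5' to 3' on the gene's strand.
Atp5c1: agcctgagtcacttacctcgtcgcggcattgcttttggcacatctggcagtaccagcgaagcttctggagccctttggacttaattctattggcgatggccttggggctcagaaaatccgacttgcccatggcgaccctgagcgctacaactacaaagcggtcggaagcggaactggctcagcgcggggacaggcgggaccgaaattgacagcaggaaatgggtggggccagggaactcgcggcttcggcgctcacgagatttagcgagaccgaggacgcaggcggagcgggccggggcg
Uqcr: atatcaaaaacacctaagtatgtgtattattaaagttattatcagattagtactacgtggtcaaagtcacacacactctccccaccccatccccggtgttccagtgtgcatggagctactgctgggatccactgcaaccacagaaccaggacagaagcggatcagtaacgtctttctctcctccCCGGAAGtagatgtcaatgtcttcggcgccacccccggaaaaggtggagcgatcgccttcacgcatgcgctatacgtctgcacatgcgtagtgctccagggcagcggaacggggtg
Cox6a1: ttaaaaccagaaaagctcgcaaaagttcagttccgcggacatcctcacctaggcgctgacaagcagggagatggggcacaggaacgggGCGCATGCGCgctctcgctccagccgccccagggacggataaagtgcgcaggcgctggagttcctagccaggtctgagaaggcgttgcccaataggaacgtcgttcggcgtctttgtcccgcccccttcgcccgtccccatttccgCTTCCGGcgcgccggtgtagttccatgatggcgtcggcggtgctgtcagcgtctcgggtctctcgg
The Atp5c1 window holds neither core, and its annotated start base is G, as are those of Uqcr and Cox6a1. A second RefSeq window of Atp5c1 starts at C and holds neither core.

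Levels in the immunoprecipitate were then set beside levels in the input, gene by gene, for names on 1 feature line of the input and, among mt- names, of the immunoprecipitate. The ratio is that of the means in 2 tables normalized separately, with the most abundant transcript standing for a nuclear gene, so it ranks genes and does not measure an enrichment. Across 3934 such names the median ratio was 0.101. The 5 mt- genes had a median of 0.554 and the 40 nuclear genes a median of 0.0974, and other protein-coding genes had one of 0.0975 over 3788 names. The nuclear respiratory messengers found in both tables thus had a median ratio like that of other messengers, with single ratios from 0.00459 to 2.57. A further 39 nuclear genes, Atp5a1 among them, were in the input table only and have no ratio. Ratios of the mt- genes ran from 0.0783 to 2761.

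The mitochondrial gene mt-Nd3 had the highest ratio of all 3934 names, with a mean of 6983 in the immunoprecipitate and 2.53 in the input, in the authors' deposited table. It was followed among mt- genes by mt-Nd2 (ratio 1.93), mt-Nd1 (0.554), mt-Co1 (0.129) and mt-Cytb (0.0783). Per kilobase of annotated gene length, mt-Nd3 (chrM:9459-9806, GRCm38.p6) had an immunoprecipitate level of 20066, against 2591 for mt-Nd2, 1388 for mt-Nd1, 413 for mt-Co1 and 145 for mt-Cytb. In the input its level per kilobase was 7.27, against 796 to 3207 for the other 7 mt- genes. Order by level was therefore not the same in the 2 tables, with mt-Co1 the highest in the input and mt-Nd3 the lowest. The sources used here do not say how the authors counted short or overlapping mitochondrial genes, and the part of counting in the mt-Nd3 values was not tested.

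Among nuclear genes the ratio was highest for Atp5g1 (2.57), Atp5h (1.49), Ndufs5 (1.44) and Sdhc (0.612). The first 3 had input means of at most 22.9, and Sdhc one of 266. Ratios were lowest for Sdha (0.00459), Atp5b, the catalytic beta subunit of ATP synthase (0.00692), and Uqcrfs1, the Rieske iron-sulfur protein (0.00823). Sdhc and Sdha work in the same complex, with input means of 266 and 920 and immunoprecipitate means of 163 and 4.22 in the authors' deposited table.

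**Figure D3:**
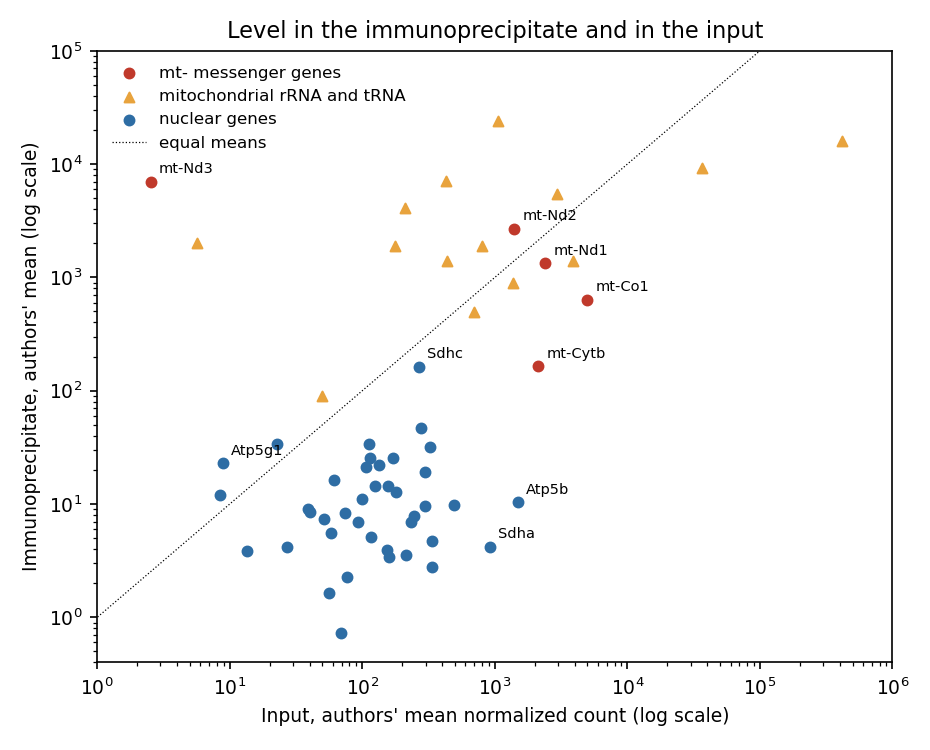
Authors' mean normalized count in the immunoprecipitate against that in the input, both on log axes, for 5 mt- genes, 40 nuclear genes and 14 mitochondrial rRNAs and tRNAs. The dotted line marks equal means. The mt- gene mt-Nd3 lies far above the line, and Sdhc has the highest immunoprecipitate mean of the nuclear genes (163), close to that of mt-Cytb (166).

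In input RNA, no respiratory chain gene passed the authors' DESeq2 test between knockout and wild-type liver. Of 87 members, 0 passed the threshold and 0 reached an unadjusted p under 0.05. Of all genes 0.0389% passed, 0.0233% as higher and 0.0155% as lower, and 2.21% had such a p. Calling by fold over SE, which in the input is the authors' own p, also gave 0 members, against 0.0388% of all genes. All adjusted p-values of members were 0.9998 in the authors' deposited table. Fold changes of all features ran from −25.05 to 22.89 in the immunoprecipitate and from −1.49 to 1.36 in the input, so sizes are not compared between the tables. The members' SE values ran from 0.21 to 0.30, so a change of the size of 1 SE could not be detected. The smallest SE was that of Ndufa4l2, at a mean of 1.53, while Atp5a1, at a mean of 1734, also had 0.21. A small SE in the input is thus no sign of good coverage. For genes with few reads, a value close to 0 or within 1 SE does not show that nothing changed.

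The 8 mt- genes all lay above 0 in the input, with a median log2 fold change of 0.20, and 53.5% of all genes did. None passed, and they share 1 genome, long precursor transcripts and the same libraries. The highest was mt-Nd1, a complex I subunit at the ubiquinone site, at 0.44 (SE 0.27, unadjusted p = 0.101, mean 2399) in the authors' deposited table. Genes named mt-Nd6 numbered 2, and by gene identifier 1 of them is mt-Nd5, which stood at 0.25 (SE 0.24, mean 1589), beside mt-Nd6 at 0.29 (SE 0.24, mean 468), in the authors' deposited table. Both are complex I subunits. The fold changes of mt-Nd2 and mt-Nd4 were 0.21 (SE 0.25) and 0.17 (SE 0.25), and mt-Nd3, at its mean of 2.53, stood at 0.06 (SE 0.24), in the authors' deposited table. The catalytic subunit gene mt-Co1 was at 0.20 (SE 0.25, mean 4954) and mt-Cytb at 0.05 (SE 0.28, mean 2116) in the authors' deposited table.

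Nuclear members lay close to 0 in every complex of the input. Their median was 0.02, the same as that of all genes (0.02), and 48 of 79 were above 0, or 60.8%. Medians were 0.01 for complex I (36 genes), 0.03 for complex II (4 genes), 0.02 for complex III (7 genes), 0.08 for complex IV (11 genes) and 0.04 for complex V (14 genes). The range over all nuclear members was −0.40 to 0.27, and 69 of 79 lay within 1 SE of 0, or 87.3%, against 77.8% of all genes. The difference between the medians, mt- minus nuclear, was 0.18, with no test of it.

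Nuclear members with the lowest p in the input were spread over complexes. Ndufb3, an accessory subunit of complex I, stood at −0.40 (SE 0.30, unadjusted p = 0.180), and Ndufa4l2, a paralog of Ndufa4 known as a hypoxia target, at 0.27 (SE 0.21, unadjusted p = 0.191) with a mean of 1.53, in the authors' deposited table. Of complex IV, Cox8a was at −0.29 (SE 0.22) and Cox6a1 at −0.27 (SE 0.22) in the authors' deposited table. Atp5s was at −0.32 (SE 0.30) in the authors' deposited table. The nuclear members with the highest input means were Atp5a1 at 0.00 (SE 0.21, mean 1734), Atp5b at 0.07 (SE 0.22, mean 1491) and Sdha at −0.09 (SE 0.21, mean 920) in the authors' deposited table. The next were Atp5g3 at 0.05 (SE 0.24, mean 488) and Uqcrc1, a core protein of complex III, at −0.07 (SE 0.22, mean 463), in the authors' deposited table. Of complex II, Sdhb, the iron-sulfur subunit, was at 0.06 (SE 0.24), and the membrane anchors Sdhc and Sdhd at 0.00 (SE 0.23) and 0.18 (SE 0.23), in the authors' deposited table.

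Input values were set beside those of the immunoprecipitate for the 8 nuclear genes with an unadjusted p under 0.05 in it. In the authors' deposited table for the input, Atp5c1 stood at −0.09 (SE 0.24), Atp5d at 0.04 (SE 0.22), Atp5g3 at 0.05 (SE 0.24) and Uqcrq at 0.02 (SE 0.22). Ndufa3 stood at −0.01 (SE 0.24), Ndufb9 at 0.10 (SE 0.23) and Ndufs5 at 0.07 (SE 0.30) in the authors' deposited table. Those 7 lay within 1 SE of 0, whereas Cox6a1, at −0.27 (SE 0.22) in the authors' deposited table, was below 0 by more than its SE. Ndufb3, the lowest nuclear gene of the input, stood at −6.50 (SE 3.57, mean 3.88, unadjusted p = 0.167) in the authors' deposited table for the immunoprecipitate. None of these input values passed. The difference between the tables was not tested, since the authors' immunoprecipitate p is not that of the printed fold change over its SE and no values of single libraries were analysed here.

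**Figure D4:**
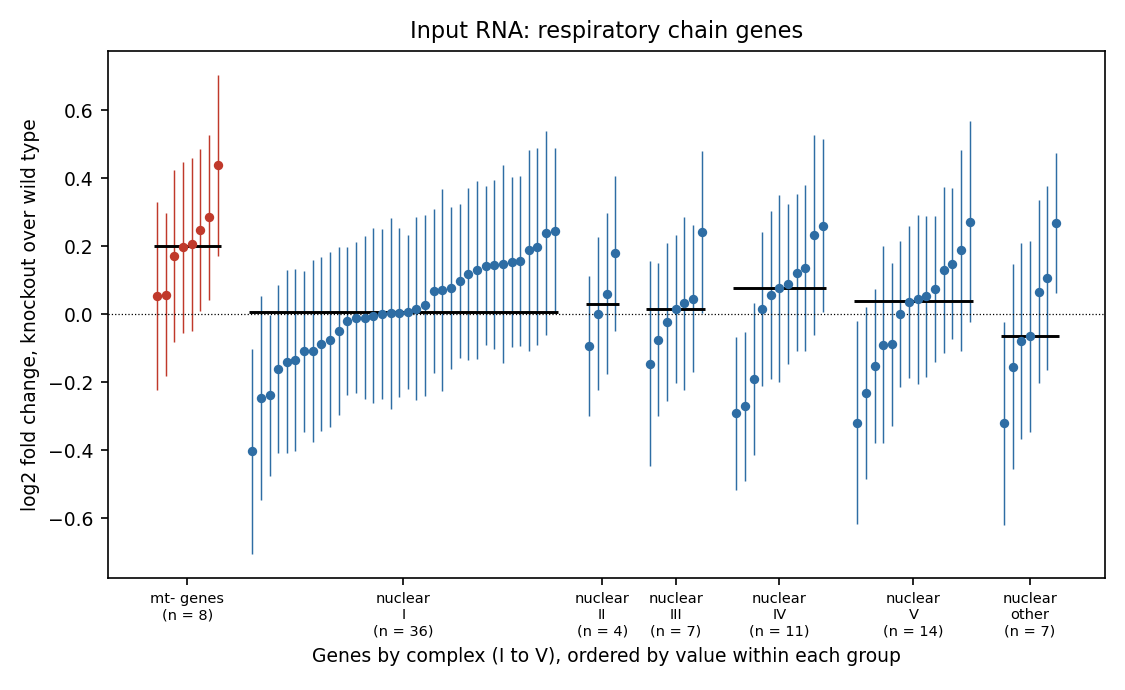
Log2 fold change (knockout over wild type) in the input for each of 8 mt- genes and 79 nuclear genes, ordered by value within each group. Bars are the authors' SE and black lines the group medians. The mt- median is 0.20, and the nuclear medians of complexes I to V lie between 0.01 and 0.08.

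Genes that build or maintain the chain also lay close to 0 in the input. Of 35 listed assembly factors outside the members 31 were measured, with a median of 0.04, and of 35 listed genes of mitochondrial transcription and RNA handling 34 were, with a median of 0.07. The 8 regulators of mitochondrial biogenesis had a median of 0.15, with the coactivator gene Ppargc1a at 0.41 (SE 0.30, unadjusted p = 0.178) by the authors' deposited table. The 76 mitochondrial ribosomal protein genes had a median of 0.01. Cyc1 and Cycs, for cytochrome c1 and cytochrome c, stood at 0.15 (SE 0.23) and 0.10 (SE 0.26) in the authors' deposited table. In each of these 5 lists 0 genes passed and 0 had an unadjusted p under 0.05.

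Markers of the tissue were in place, and none of those measured passed the threshold in the input. The 6 hepatocyte markers had means of at least 2380, Alb the highest at 84262, with fold changes between −0.23 and 0.23 in the authors' deposited table. Of the other lists, macrophage markers (5 measured) had a median of −0.04, endothelial ones (4) 0.07, stellate ones (4) 0.19 and bile duct ones (4) −0.12. Their summed means were 594, 506, 688 and 21.9, against 134180 for hepatocytes. The 4 red cell markers measured were all below 0, with a median of −0.50 and a summed mean of 496, and Alas2, the heme synthesis gene of red cells, stood at −0.99 (SE 0.29, adjusted p = 0.443) by the authors' deposited table. Their part in the respiratory chain values was not tested.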

How the data were processed

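miCLIP libraries of total RNA from Fto knockout and wild-type mouse liver were cloned by the iCLIP procedure after TRIzol extraction and DNase treatment, per the labels' protocols. The submitters' processing notes name STAR, bedtools 2.25.0, DESeq2 and the build mm10 without their roles. Per the file headers, the deposited values are a mean normalized count per feature (used as a signal), a log2 fold change with its SE, a test statistic (a score) and p-values with adjusted p-values. In the input the authors' p equalled the normal p of fold over SE. In the immunoprecipitate the authors' p was the chi-square upper tail of the statistic with 1 degree of freedom, which is not the squared ratio of fold to SE, so p and printed fold may test different terms.

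Computed here with Python 3.11.15, pandas 2.3.3, numpy 2.4.6, scipy 1.17.1 and matplotlib 3.10.9 were members, counts at an adjusted p of 0.05, medians, normal 95% intervals and ratios of means. No replicate could be compared or left out. Nothing in the labels ties a replicate to an animal of its own, and p-values then cover only the spread among these samples, possibly a technical one. Named were all mt- members, called nuclear ones, the 5 of lowest p and of highest mean per table, complex II and genes with several transcripts. Uqcr, Uqcrfs1, Cox6a1 and Ndufb9 in the immunoprecipitate, Cox8b, Cox6b1 and Ndufb10 were added after their values were seen. A gene that the rule names is not reported here. Sets of features of like mean and shares at a mean of at least 10 were also chosen after seeing the data. Members and lists were chosen with earlier results of these data known. All 87 input member identifiers had a current symbol, and RefSeq matched all 81 nuclear names. Adjustment and fold-over-SE code was tested on simulated data.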

Additional observations from a re-analysis of the deposited data

How the results depend on the processing

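The count of 0 called members in the input was also 0 under the authors' p adjusted over the table. Fold over SE gave 0 too, but in the input it is the authors' own p. A mean of at least 10 and structural subunits only drop members at an unchanged adjusted p, so they could not raise the count. The 1 called immunoprecipitate feature, Atp5c1, stayed in the count with a mean of at least 10, 1 feature per gene or structural subunits only. Those settings keep its adjusted p unchanged, so they are no check of the call. The count became 0 with the authors' p adjusted over all features of the table. With fold over SE in place of the authors' p it became 13, of which 12 lower and all nuclear. By that rule 10.8% of all features pass, and 606 of those 819 were lower. Medians were held to have moved when they shifted by more than the median SE of single members, a wide measure for a median, so smaller shifts do not show stability. Centring took the mt- median in the immunoprecipitate to 1.21. A mean of at least 50 took the nuclear median to 0.78, over 2 Sdhc features, and the difference to −1.17. That setting changes both how many and which nuclear features remain, and their parts in the shift were not tested. Other settings gave input differences between 0.15 and 0.19 and immunoprecipitate differences between −0.16, a turn of sign at a mean of at least 10, and 1.64. Alternatives that add mitochondrial rRNAs and tRNAs or use current symbols were chosen after seeing the data. No paired analysis was possible because the deposited tables hold no values of single replicates, and leaving out a replicate was not possible for the same reason.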

Other observations

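The rRNAs and tRNAs of the mitochondrial genome, which the tables name by an accession of that genome and a number, were precipitated beside the mt- messengers. The 21 tRNA features made up 12.3% of the summed means of the immunoprecipitate and the 2 rRNA features 5.07%, and 0 of these 23 passed the threshold in the authors' DESeq2 table. Fold changes of the tRNAs ran from −2.11 to 0.85 with a median of −0.83, and 20 of 21 lay below 0. The median of all features was −1.59, and that of the 229 features within the range of tRNA means that are not mitochondrial was −0.44. In all, 3 tRNAs, or 14.3%, had an unadjusted p under 0.05, against 10.4% of all features and 19.6% of those 229. All 3 were lower, the lowest being AY172335-18 at −2.11 (SE 0.65, adjusted p = 0.0902, mean 73.0) in the authors' deposited table. The tRNA feature with the highest mean, AY172335-5, listed as mt-Tl1 by gene identifier, had a mean of 23959 and a fold change of −1.03 (SE 0.58) in the authors' deposited table.

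Ratios of immunoprecipitate to input mean ran from 0.361 to 356 for the 12 tRNAs in both tables, with a median of 2.78. The highest was AY172335-9, listed as mt-Tw, with means of 2006 and 5.63 in the authors' deposited table, a pattern like that of mt-Nd3 in having little signal in the input. The rRNAs mt-Rnr1 and mt-Rnr2 had ratios of 0.252 and 0.0384 and made up 24.9% of the summed input means. In the input the 13 tRNAs had a median fold change of 0.16 with 10 above 0, and 0 passed.

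Among mitochondrial ribosomal protein genes, 1 of the 14 immunoprecipitate features with an adjusted p passed the threshold, or 7.14%, against 4.69% of all features, and 21 other features had none. It was Mrpl52, a protein of the large mitochondrial ribosomal subunit, at −8.36 (SE 1.26, adjusted p = 4.52e-04, mean 15.5), while its input value was −0.03 (SE 0.27), in the authors' deposited table. This gene was named after its value was seen.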
